A study of Mus musculus with 4 samples.

Results

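The MCM helicase and GINS complex are described here by their 10 subunit genes, *Mcm2*, *Mcm3*, *Mcm4*, *Mcm5*, *Mcm6*, *Mcm7*, *Gins1*, *Gins2*, *Gins3* and *Gins4*. They were taken by symbol from the 26022 genes of the deposited count table, in which each symbol occurred once, and all 10 passed the filter on low counts that left 14259 genes for testing. RNA was measured by Smart-Seq2, a method that amplifies full-length cDNA from very few cells, in embryos of the ICR mouse strain collected at the late 2-cell (2C) stage. The zygotes came from superovulated ICR females mated with ICR males and were cultured for 16 h in KSOM medium. The control group had 0 μM Mdivi-1 and the treated group had 200 μM Mdivi-1, a compound used to inhibit DRP1, the GTPase of mitochondrial fission, with 2 libraries in each group. Several embryos were pooled for each group, no group carried a genetic change, and no vehicle is named for the control embryos. Whether the 2 libraries in a group are of different litters or cultures is not said, so p-values measure the spread between these libraries, which may be technical.

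The 6 MCM2-7 proteins form a ring that is loaded onto DNA at replication origins, by the origin recognition complex with CDC6 and CDT1, before S phase. The ring becomes an active helicase when CDC45 and the GINS complex of 4 subunits join it, and the assembly is then called CMG. The genes of these subunits are known in somatic cells as targets of E2F transcription factors, whereas the cleavage embryo starts with RNA and protein stored in the oocyte.

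Sequences around the RefSeq starts of the genes were examined first, since E2F sites are known in such promoters. The RefSeq table of promoters on GRCm38.p6, with 250 bases before and 50 from the start on, had windows for 6 of the 10 genes, *Mcm2*, *Mcm3*, *Mcm5*, *Mcm6*, *Mcm7* (with 2 windows) and *Gins3*. *Mcm4*, *Gins1*, *Gins2* and *Gins4* had no window there. The 4 octamers TTTGGCGC, TTTCGCGC, TTTCCCGC and TTTGCCGC were searched on both strands. At least 1 of them was found in 5 of the 7 windows, against 2.26% of all 32851 windows of the same length. Of the *Mcm6* and *Mcm5* windows the 250 bases before the start are shown. These genes were chosen because their RNA lay on opposite sides of the controls in treated embryos. The octamer of *Gins3* is shown because that gene had the most negative fold change. Capitals mark the octamers. In *Mcm6* the first run of capitals holds TTTGGCGC and, overlapping it on the other strand, TTTCGCGC. In *Mcm5* the run likewise holds TTTCGCGC and an overlapping TTTGGCGC of the other strand, and in *Gins3* the capitals are TTTCCCGC read on the other strand.
Mcm6, chr1:128359706-128359955, minus strand: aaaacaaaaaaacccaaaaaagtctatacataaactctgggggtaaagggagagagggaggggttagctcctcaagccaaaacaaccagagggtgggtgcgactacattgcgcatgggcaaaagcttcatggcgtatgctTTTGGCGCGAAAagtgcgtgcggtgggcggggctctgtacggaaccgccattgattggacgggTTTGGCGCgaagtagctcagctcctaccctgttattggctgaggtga
Mcm5, chr8:75109259-75109508, plus strand: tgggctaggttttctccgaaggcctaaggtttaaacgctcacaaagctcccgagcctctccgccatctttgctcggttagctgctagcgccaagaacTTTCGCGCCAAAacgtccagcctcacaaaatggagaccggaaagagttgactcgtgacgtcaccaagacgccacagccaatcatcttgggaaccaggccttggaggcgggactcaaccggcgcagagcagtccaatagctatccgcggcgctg
Gins3, chr8:95633507-95633536, plus strand: gcgagtgcggcGCGGGAAAgcgagtttgaa

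The *Mcm6* window held octamers that begin 110, 106 and 47 bases before the start, and the *Mcm5* window held octamers that begin 153 and 149 bases before it. The *Gins3* octamer began 41 bases before the RefSeq start, which lies inside the first exon of the gene as GENCODE M21 annotates it, since the GENCODE start is farther upstream. *Mcm3* had its octamers 20 and 39 bases into the transcript. In its first window *Mcm7* had 1 that begins 165 bases before the start and 1 that begins 17 bases into the transcript. The *Mcm7* windows also lie inside the gene as GENCODE M21 annotates it. No octamer was found in the *Mcm2* window or in the second window of *Mcm7*. CCAAT, the box bound by NF-Y, was present on one or the other strand in 7 of 7 windows, against 37.4% of all windows. These matches describe letters and do not show that a factor binds there. Genes that were lower, higher and overlapping between the groups all had windows with octamers.

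The total count was 17712075 to 20077326 per library, of which 7682 to 13527 counts fell on the 10 genes. Levels are given as CPM, the counts of a gene relative to the library size, after TMM scaling, which adjusts each library for differences in composition. The embryos had RNA of 2C genes: the 8 of 8 markers of the 2C stage that were tested summed to 776 and 1339 CPM in the control and 2074 and 2470 CPM in the treated libraries. The 14 oocyte and maternal markers summed to 1876 and 2412 CPM in control against 4492 and 6554 CPM in treated embryos. Of them, 11 had positive log2 fold changes (13 by library totals) and 3 negative ones. *Btg4*, the highest of the 14 in both treated libraries, had 380 and 656 against 1650 and 3614 CPM. *Zp3* went the other way, with both treated libraries below both controls (198 and 270 against 149 and 99.2 CPM). The other genes with negative values, *Padi6* and *Khdc3*, overlapped between the groups. Markers of cumulus and granulosa cells summed to 7.78 and 16.9 CPM in control and 22.0 and 22.7 CPM in treated libraries. Of these 13 genes, *Amh*, *Has2*, *Ptx3*, *Lum* and *Dcn* were at 0 throughout. *Star* was above both controls in both treated libraries (0 and 0.263 against 3.11 and 3.86 CPM). So was *Cyp19a1* (1.23 and 0.459 against 4.83 and 2.35 CPM). *Tnfaip6*, the highest of the 13 in each library, overlapped between the groups. *Ptgs2* was above both controls in the first treated library and at 0 in the second. Of the 4 genes tested, 3 had positive log2 fold changes and 1, *Fshr*, had a negative one. The 9 later lineage markers summed to 38.1 and 36.7 against 54.9 and 39.6 CPM. Of these, *Cdx2* and *Sox17* were at 0. *Gata3* was above both controls in both treated libraries (10.5 and 9.45 against 26.4 and 22.5 CPM). So was *Sox2* (2.41 and 0.984 against 5.31 and 7.14 CPM). Of the 6 lineage markers tested, 3 had positive and 3 negative log2 fold changes. The negative ones were *Esrrb*, *Krt8* and *Krt18*, each with overlap between the groups. The 5 sperm markers in the table summed to 3.78 and 3.61 against 9.88 and 2.61 CPM, with *Tnp2* at 0. Thus the 2C, oocyte, cumulus and later lineage sums were above both controls in both treated libraries. The cumulus and lineage sums were low, and the lineage sum of the second treated library was close to the controls. The part of these markers in the changes of the helicase genes was not tested. Mitochondrially encoded genes took 14.3% to 18.8% of the counts. In pooled embryos, fewer cells or embryos with a transcript and less of it per cell cannot be told apart.

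The helicase genes differed in direction. *Mcm6* and 3 of the 4 GINS genes, *Gins1*, *Gins3* and *Gins4*, were lower in both treated libraries than in both controls, *Mcm4* and *Mcm5* were above both controls, and *Mcm2*, *Mcm3*, *Mcm7* and *Gins2* overlapped between the groups. For all genes tested, both treated libraries lay below both controls in 23.9% and above them in 26.1%. By edgeR's quasi-likelihood test with Benjamini-Hochberg adjustment 0 of the 10 genes passed an adjusted p of 0.05, and neither did any of the 14259 genes tested (0% called; smallest adjusted p = 0.109). At an unadjusted p under 0.05, 4 of the 10 were lower, against 7.64% of all genes, and 0 were higher, against 8.27% of all genes. DESeq2, the tool of the study's methods, called 3 of the 10 lower at an adjusted p under 0.05, against 2.92% of 13706 genes, and 0 higher, against 3.41%. DESeq2 called 3 of the 10 without control replicate 1, 0 without control replicate 2, 0 without Mdivi-1 replicate 1 and 1 without Mdivi-1 replicate 2. Such a fit has 1 library in one group, which is assumed to vary like the other group, so it has less power, and a lost call does not by itself show that a fold change rested on the omitted library. The 4 genes at an unadjusted p under 0.05 became 2 without either Mdivi-1 library. Of all 14259 genes tested, 6942 had negative and 7317 positive log2 fold changes. Of the 10, 8 had negative and 2 positive log2 fold changes (7 and 3 when scaled by library totals), with a median of -0.35 beside 0.03 over all genes tested. This median was -0.19 when scaled by library totals, -0.59 without control replicate 1, -0.58 without control replicate 2, -0.59 without Mdivi-1 replicate 1 and -0.30 without Mdivi-1 replicate 2.

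**Figure D1:**
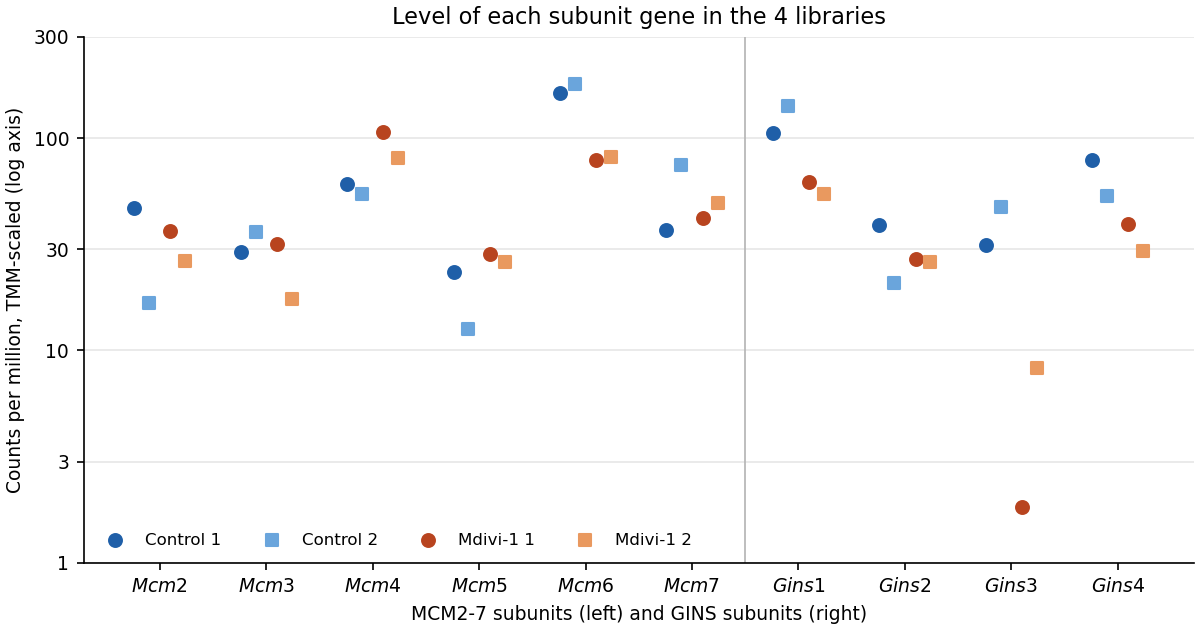
Level of each subunit gene in CPM after TMM scaling, on a log axis, with 1 point for each of the 2 control (blue) and 2 Mdivi-1 (orange) libraries. *Mcm6*, *Gins1*, *Gins3* and *Gins4* have both orange points below both blue ones, *Mcm4* and *Mcm5* have them above, and the remaining 4 genes overlap.

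*Mcm6* encodes one of the ring subunits that join as the MCM4/6/7 core. It had 163 and 180 CPM in the control libraries and 78.5 and 81.4 CPM in the treated libraries. Both treated values lay below both controls, the nearest pair being 2.004-fold apart. The mean was 171 ± 11.8 CPM (SD, n = 2) for control embryos. For treated embryos it was 79.9 ± 2.04 CPM (SD, n = 2). This is a log2 fold change of -1.10 with a standard error of 0.29 (unadjusted p = 0.00517; adjusted p = 0.175 by edgeR, adjusted p = 0.0183 by DESeq2). Of all genes tested, 12.4% had a more negative fold change. With 1 library left out the DESeq2 log2 fold change stayed between -1.21 and -1.05. Its adjusted p was 0.0119 without control replicate 1, 0.0511 without control replicate 2, 0.407 without Mdivi-1 replicate 1 and 0.257 without Mdivi-1 replicate 2.

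*Mcm4* lies in the same core of the ring and showed the opposite sign. Its level was 60.5 and 54.3 CPM in control and 106 and 81.0 CPM in treated libraries. Both treated libraries were above both controls, by at least 1.34-fold between the nearest pair. The log2 fold change of 0.71 (standard error 0.31; 95% confidence interval -0.01 to 1.43) had an unadjusted p = 0.0527 and an adjusted p = 0.320 by edgeR, with adjusted p = 0.302 by DESeq2, so it did not pass either test. The ratio of *Mcm4* to *Mcm6* within a library, per kilobase of exon, does not depend on how libraries are scaled. Control libraries had ratios of 0.483 and 0.393, and treated libraries had ratios of 1.76 and 1.29. Since the pair was picked for its difference, the ratio is a description without a test.

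*Mcm7*, the last of the core subunits, had 37.1 and 74.5 CPM in control and 41.9 and 49.5 CPM in treated libraries. Both treated values lay between the controls. The log2 fold change was -0.29 with a 95% confidence interval of -1.23 to 0.65. The gene shares 321 exonic bases with *Ap4m1* and 64 with *Cops6*, both on the opposite strand, and its exons also hold *Mir25* and *Mir93*. Smart-Seq2 keeps no strand, so reads from these shared bases cannot be assigned to one gene.

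*Mcm2*, *Mcm3* and *Mcm5* encode the remaining ring subunits, in which MCM2 and MCM5 form the gate that opens for DNA. *Mcm2* ranged widely within the control group, from 47.0 CPM in replicate 1 to 16.7 CPM in replicate 2, and was at 36.6 and 26.3 CPM in the treated libraries. The treated values lay between the controls, with a log2 fold change of -0.02 (0.01 when scaled by library totals) and a 95% confidence interval of -1.24 to 1.19. *Mcm3* had 29.2 and 36.2 CPM in control and 31.9 and 17.5 CPM in treated libraries, and only the second treated library was below both controls. The fitted log2 fold change was -0.41 with a 95% confidence interval of -1.40 to 0.59, and ran from -0.90 without Mdivi-1 replicate 1 to -0.05 without Mdivi-1 replicate 2. *Mcm5* had 23.5 and 12.6 CPM in control and 28.6 and 26.2 CPM in treated libraries. Although both treated libraries were above both controls, the nearest pair differed by 1.11-fold, and the log2 fold change of 0.60 had a 95% confidence interval of -0.45 to 1.65. It was 1.12 without control replicate 1 and 0.20 without control replicate 2. With such intervals, changes of more than 1 on the log2 scale could not be told from none for these 3 genes.

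Among the GINS genes, 3 of 4 had both treated libraries below both controls, and the remaining gene was *Gins2*. *Gins3*, which encodes the PSF3 subunit, had the most negative fold change among the 10 genes. It had 31.2 and 47.2 CPM in the control libraries, from 686 and 719 counts, and 1.83 and 8.29 CPM in the treated libraries, from 34 and 159 counts. The exact Poisson 95% intervals of the treated libraries, 1.26 to 2.55 and 7.05 to 9.68 CPM, did not overlap each other, so that the treated libraries differed by more than counting error, which is all these intervals cover. Even the higher treated library was 3.77-fold below the lower control. The log2 fold change was -2.95 with a standard error of 0.72 (unadjusted p = 0.00359; adjusted p = 0.166 by edgeR, adjusted p = 0.00112 by DESeq2), and 1.58% of all genes tested had a more negative one. Its size depended on the treated library used. It was -4.43 without Mdivi-1 replicate 2 and -2.24 without Mdivi-1 replicate 1, and the DESeq2 adjusted p was 8.89e-06 and 0.101, respectively. Without control replicate 1 the DESeq2 adjusted p was 0.00398, and without control replicate 2 it was 0.0639.

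*Gins1*, encoding PSF1, had 106 and 142 CPM in control and 61.9 and 54.6 CPM in treated libraries. Both treated libraries were below both controls, with 1.71-fold between the nearest pair. The log2 fold change was -1.09 with a standard error of 0.31 (unadjusted p = 0.00840; adjusted p = 0.195 by edgeR, adjusted p = 0.0395 by DESeq2). With 1 library left out the DESeq2 log2 fold change lay between -1.33 and -0.88. The adjusted p was 0.0110 without control replicate 1, 0.200 without control replicate 2, 0.386 without Mdivi-1 replicate 1 and 0.417 without Mdivi-1 replicate 2.

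*Gins4*, encoding SLD5, had 79.1 and 53.3 CPM in control and 39.5 and 29.4 CPM in treated libraries. The groups did not overlap, and the nearest pair differed by 1.35-fold. Its log2 fold change of -0.94 (standard error 0.36) had an unadjusted p = 0.0318 and an adjusted p = 0.267 by edgeR, with adjusted p = 0.175 by DESeq2. The unadjusted p was 0.0857 when scaled by library totals, 0.162 without control replicate 1, 0.0597 without Mdivi-1 replicate 1 and 0.181 without Mdivi-1 replicate 2, at log2 fold changes of -0.86, -0.63, -1.17 and -0.76. *Gins2*, encoding PSF2, had 38.9 and 20.7 CPM in control and 26.8 and 26.2 CPM in treated libraries, which lay between the controls. Its log2 fold change was -0.17 with a 95% confidence interval of -1.16 to 0.83. The value of *Gins2* is uncertain for another reason: 2758 of its 4097 exonic bases, or 67.3%, also belong to *Gse1* on the opposite strand. *Gse1* was at 8.15 and 3.81 CPM in control and 10.2 and 8.86 CPM in treated libraries.

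**Figure D2:**
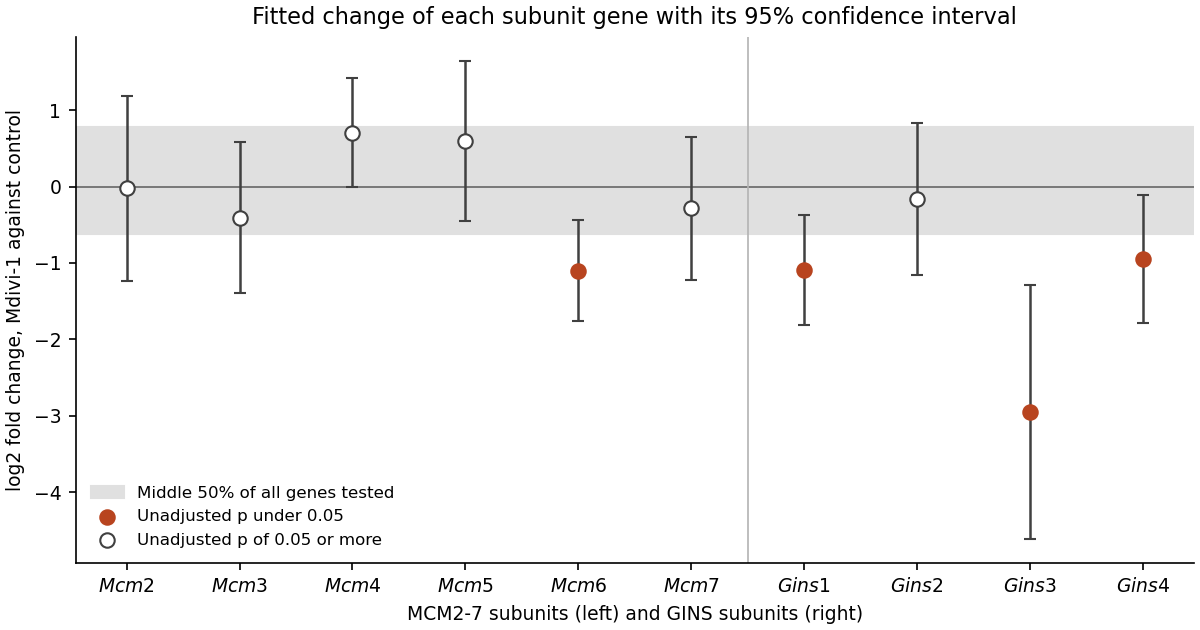
Log2 fold change of each subunit gene in Mdivi-1-treated against control embryos, from edgeR's quasi-likelihood fit, with bars for the 95% confidence interval and a grey band for the middle 50% of all genes tested (-0.62 to 0.78). Filled points, for *Mcm6*, *Gins1*, *Gins3* and *Gins4*, have an unadjusted p under 0.05, and none of the 10 passed after adjustment over all genes.

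Differences between the libraries of a group set how much could be detected. The controls differed from each other by a log2 ratio of 1.49 for *Mcm2*, 0.91 for *Gins2* and 0.90 for *Mcm5*, with replicate 1 higher. They differed by -1.01 for *Mcm7* and -0.60 for *Gins3*, with replicate 2 higher. For *Mcm6*, with the smallest difference between the controls, the log2 ratio was -0.14 between them and -0.05 between the treated libraries. The treated libraries differed most for *Gins3*, by -2.18, and for *Mcm3*, by 0.86. The spread between libraries of a group that edgeR fits over all genes tested, which it names the biological coefficient of variation, was 0.660. This spread may be technical in part.

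To compare levels between subunits, CPM was divided by exonic length in kilobases. In control embryos the order of the means was *Gins1* (81.8 CPM per kb), *Gins4* (49.1), *Mcm6* (36.7), *Mcm4* (15.99), *Gins3* (14.5), *Mcm7* (12.6), *Mcm3* (8.72), *Gins2* (7.27), *Mcm2* (4.58) and *Mcm5* (4.52). Down to *Mcm4*, each gene was above the next in that order without overlap of the control libraries, whereas from *Mcm4* on, each gene overlapped the next. Subunits that are present in equal numbers in the protein complex were therefore unequal in RNA. In every library the highest MCM2-7 gene was 5.64-fold to 16.02-fold above the lowest, and the highest GINS gene was 7.37-fold to 60.7-fold above the lowest. The lowest GINS gene in the controls was *Gins2*, of whose exonic bases 67.3% also belong to *Gse1*. Its level per exonic kilobase, and the ratios that rest on it, are therefore uncertain. The order and these ratios depend on the length used. By coding length the ratios were 3.17-fold to 12.7-fold for MCM2-7 and 3.74-fold to 37.4-fold for GINS, and *Gins2*, whose coding sequence has 555 bases, had a control mean of 53.6 CPM per coding kb, above each MCM gene other than *Mcm6* (69.6).

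The leading MCM gene differed between the groups. *Mcm6* had 34.9 and 38.5 CPM per kb in the controls, which was 43.3% and 45.0% of the summed MCM2-7 level. *Mcm4* was the highest in treated embryos, with 29.7 and 22.6 CPM per kb, or 38.6% and 34.1% of the sum. By coding length in place of exonic length *Mcm6* was still the highest in the second treated library. The summed level of the 6 MCM genes was 80.6 and 85.7 CPM per kb in control and 76.9 and 66.2 CPM per kb in treated libraries. The log2 ratio of the group means of this sum was -0.22, with -0.33 without Mdivi-1 replicate 1 and -0.11 without Mdivi-1 replicate 2. For the 4 GINS genes the sum was 150 and 156 CPM per kb in control and 77.4 and 67.3 CPM per kb in treated libraries, a log2 ratio of -1.08. *Gins1* made up 46.7% and 60.2% of the GINS sum for control and 52.8% and 53.5% for treated embryos, and led in all 4 libraries. *Gins3* went from the third place to the last, with 11.5 and 17.4 CPM per kb in control and 0.674 and 3.06 CPM per kb in treated libraries. By coding length it was already the last in the first control library. By exonic length its place above *Gins2* in the controls is uncertain, since most exonic bases of *Gins2* are shared with *Gse1*. Within a library the ratio of *Gins3* to *Gins1* was 0.165 and 0.186 for control and 0.0165 and 0.0849 for treated embryos. That of *Gins4* to *Gins1*, at 0.839 and 0.422 against 0.717 and 0.605, overlapped between the groups.

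**Figure D3:**
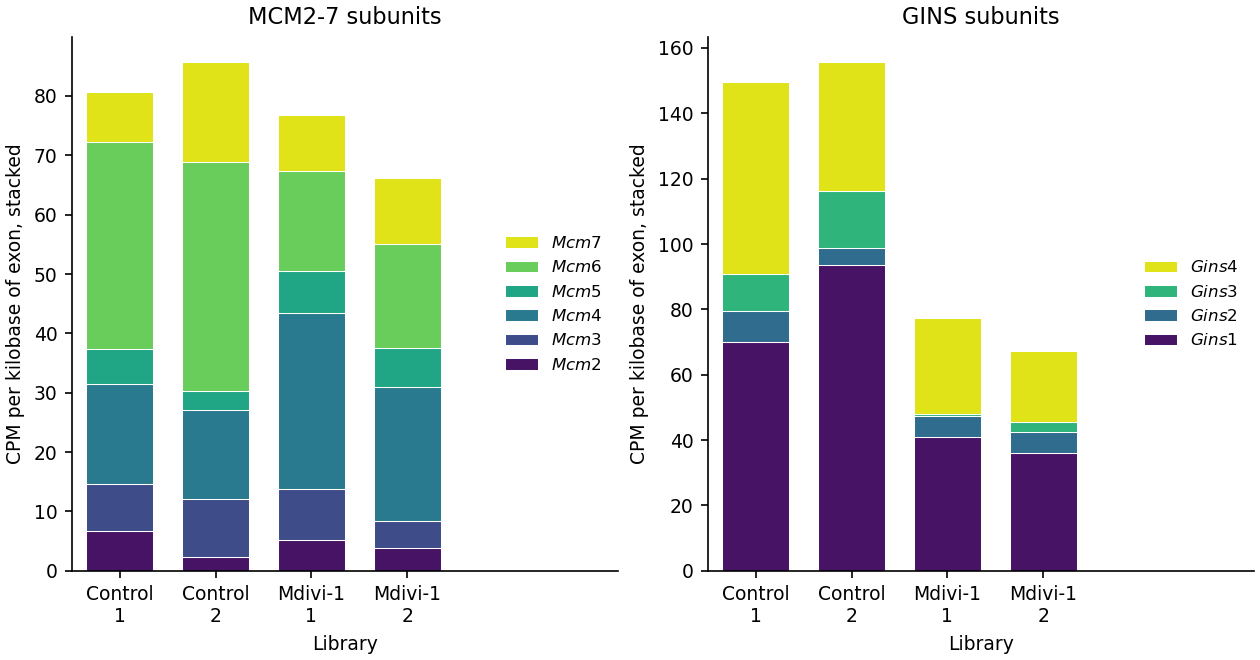
CPM per kilobase of exon, stacked by subunit gene, for the MCM2-7 genes (left) and the GINS genes (right) in each of the 4 libraries. The MCM2-7 stacks run from 66.2 to 85.7 with *Mcm6* the broadest band in the controls and *Mcm4* in the treated libraries, and the GINS stacks reach 150 and 156 for control and 77.4 and 67.3 for treated embryos.

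By position the genes are scattered over the genome. In GENCODE M21 on GRCm38, *Mcm3* lies at chr1:20802968-20820312 and *Mcm6* at chr1:128331590-128359664, both on the minus strand. *Mcm5* (chr8:75109569-75128439), *Gins2* (chr8:120578633-120589304), *Gins3* (chr8:95633453-95645060) and *Gins4* (chr8:23226616-23237659) share chromosome 8 but are far apart. *Gins1* is at chr2:150905400-150931280, *Mcm7* at chr5:138164583-138172422, *Mcm2* at chr6:88883474-88898780 and *Mcm4* at chr16:15623897-15637400. *Mcm4* and *Prkdc*, the catalytic subunit of DNA-dependent protein kinase, lie on opposite strands 465 bases apart. *Prkdc* had 55.9 and 70.1 CPM in control and 28.8 and 33.1 CPM in treated libraries, with a log2 fold change of -1.03 (unadjusted p = 0.0156; adjusted p = 0.218 by edgeR), against 0.71 for *Mcm4*. *Gins1* and *Abhd12*, a lipase gene on the opposite strand, are 658 bases apart. The log2 fold change of *Abhd12* was 1.24 (unadjusted p = 0.0525; adjusted p = 0.320 by edgeR), against -1.09 for *Gins1*. The fold changes of *Cops6* and *Ap4m1*, which overlap *Mcm7* (-0.29), were -1.17 (adjusted p = 0.185 by edgeR, adjusted p = 0.0181 by DESeq2) and -0.34. *Prkdc* and *Abhd12* thus had the sign opposite to the helicase gene beside them, and *Cops6* and *Ap4m1* had the same sign. The difference within these pairs was not tested.

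The genes that load and activate the ring are those closest to the helicase in the pathway. Of the 10 genes of origin recognition and helicase loading, 8 had negative log2 fold changes (7 by library totals; median -0.35), with 0 lower and 1 higher at an unadjusted p under 0.05. Among all genes tested 7.64% were lower and 8.27% higher at that threshold. The higher gene was *Orc5*, a subunit of the origin recognition complex, which had 35.5 and 68.2 CPM in control and 169 and 208 CPM in treated libraries. This gave a log2 fold change of 1.86 (unadjusted p = 0.00147; adjusted p = 0.149 by edgeR, adjusted p = 0.000400 by DESeq2). *Cdc6*, the loading ATPase, had 82.5 and 90.5 against 39.0 and 65.3 CPM, with a log2 fold change of -0.73 (unadjusted p = 0.0723). *Cdt1*, which brings the ring to the origin, had 39.2 and 34.3 against 30.1 and 18.8 CPM, with a log2 fold change of -0.59 (unadjusted p = 0.178). Both were below the controls in each treated library without passing the test. *Gmnn*, which encodes geminin, the inhibitor of CDT1, had 1337 and 2548 against 1727 and 1289 CPM, and *Mcmbp*, a chaperone of the ring subunits, had 460 and 352 against 335 and 358 CPM. The groups overlapped for these 2 genes.

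Of the 10 genes of helicase activation, 7 had negative log2 fold changes (6 by library totals; median -0.21), and 0 passed an unadjusted p of 0.05. Among all genes tested 7.64% passed it as lower and 8.27% as higher. *Cdc45*, the remaining part of CMG, had 136 and 204 CPM in control and 58.5 and 147 CPM in treated libraries. The second treated library lay between the controls, and the log2 fold change was -0.73 (unadjusted p = 0.152). *Mcm10*, a factor needed to fire the assembled helicase, had 25.7 and 22.0 against 26.4 and 18.8 CPM, which overlapped. *Topbp1*, a scaffold for the delivery of GINS, had the smallest p of the list, with 68.6 and 69.3 against 51.4 and 44.5 CPM and a log2 fold change of -0.52 (unadjusted p = 0.125). Of 9 genes of fork protection and helicase unloading, 7 had negative fold changes (median -0.23). *Cul2*, the cullin of the ligase that removes CMG at termination, had 47.6 and 68.6 against 20.02 and 29.8 CPM and was lower at an unadjusted p of 0.0136, with adjusted p = 0.217 by edgeR. Neither paralog outside the ring passed: *Mcm9* had a log2 fold change of 0.64 (unadjusted p = 0.202) and *Mcm8* was under 10 CPM in all 4 libraries.

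Downstream of the helicase, 11 of the 12 genes of the replicative polymerases and primase were tested, and 8 had negative log2 fold changes, with a median of -0.47 and 0 genes at an unadjusted p under 0.05. The smallest p was that of *Prim2*, the large primase subunit, with 54.3 and 46.9 against 20.9 and 35.1 CPM and a log2 fold change of -0.85 (unadjusted p = 0.0577). Of 13 genes of the clamp, its loaders and RPA, 8 had negative fold changes (7 by library totals, 9 with DESeq2 size factors; median -0.19) and 2 were lower at an unadjusted p under 0.05. For both lists, the shares over all genes tested were 7.64% lower and 8.27% higher. *Rpa2*, a subunit of the single-strand binding protein, had 202 and 182 CPM in control and 87.7 and 98.1 CPM in treated libraries. This gave a log2 fold change of -1.05 (unadjusted p = 0.00683; adjusted p = 0.185 by edgeR, adjusted p = 0.0241 by DESeq2). *Pcna*, the sliding clamp, had 143 and 309 against 172 and 226 CPM, so that the controls enclosed the treated libraries.

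Of 6 genes of Okazaki fragment maturation, 3 had negative and 3 positive fold changes (median 0.19). *Rnaseh2b*, a subunit of RNase H2, had 43 and 123 counts in the control and 2 and 0 counts in the treated libraries (DESeq2 adjusted p = 0.00852; edgeR adjusted p = 0.201). At such counts the fitted fold change depends on the prior count and is not given. Of 10 genes of deoxynucleotide supply, 6 had negative fold changes (median -0.21) and 2 were lower at an unadjusted p under 0.05, against 7.64% of all genes tested. *Dck*, deoxycytidine kinase, had 22.2 and 37.9 against 7.78 and 15.8 CPM and a log2 fold change of -1.35 (unadjusted p = 0.0334; adjusted p = 0.270 by edgeR).

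Among the known regulators of these genes most fold changes were positive. Of 17 genes of E2F factors, pocket proteins and S phase cyclins, 16 were tested and 14 had positive log2 fold changes (13 with DESeq2 size factors). Their median was 0.43, and 2 were higher and 0 lower at an unadjusted p under 0.05. Of all 14259 genes tested, 7317 had positive log2 fold changes, and 8.27% were higher and 7.64% lower at that threshold. *E2f5*, which acts with pocket proteins and is known mainly as a repressor, had 211 and 207 CPM in control and 639 and 496 CPM in treated libraries. The fitted log2 fold change was 1.44 (unadjusted p = 0.00164; adjusted p = 0.151 by edgeR, adjusted p = 0.000277 by DESeq2). The activator *E2f1* had 29.6 and 20.5 against 38.5 and 26.0 CPM, and *E2f2* had 15.2 and 7.74 against 13.7 and 17.2 CPM, and both overlapped. *E2f3*, the other activator, was under 1 CPM in each library and was not tested. *E2f4*, of the same class as *E2f5*, had a log2 fold change of 0.58 and overlapped. *E2f6* was at 4.10 CPM or less. The atypical repressors *E2f7* and *E2f8* had log2 fold changes of 1.17 and 1.68 (unadjusted p = 0.164 and 0.131). Both were low, *E2f7* with 8.42 and 2.30 against 13.9 and 10.3 CPM and *E2f8* with 2.59 and 1.05 against 6.17 and 5.58 CPM. The part of these genes in the levels of the helicase genes was not tested.

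Over all 9 lists, 87 of 89 genes were tested, with a median log2 fold change of -0.16. Of these, 49 had negative and 38 positive log2 fold changes, beside 6942 and 7317 among all 14259 genes tested. At an unadjusted p under 0.05, 6 were lower and 3 higher, and DESeq2 called 2 lower and 2 higher. These counts are near or below the shares over all genes tested, which were 7.64% lower and 8.27% higher by edgeR and 2.92% lower and 3.41% higher by DESeq2. The counts varied when 1 library was left out, and for those fits no share over all genes was worked out. All of these values come from the same 4 libraries.

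**Figure D4:**
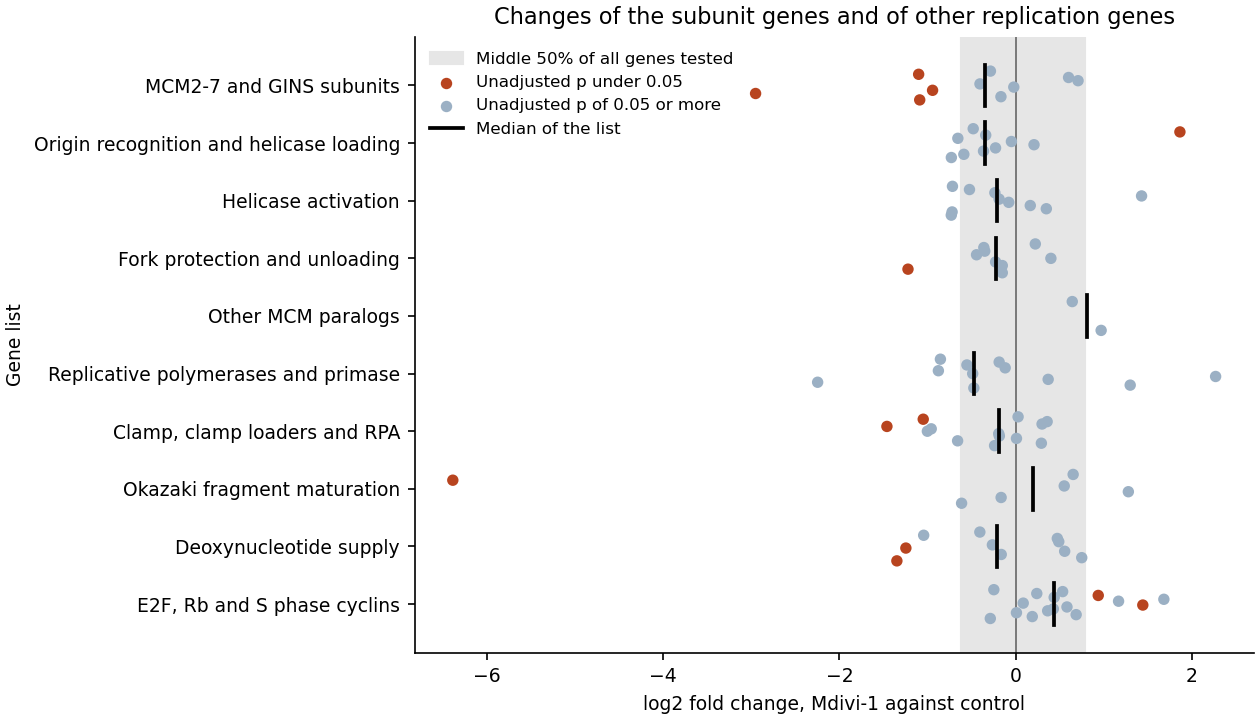
Log2 fold change of each tested gene in Mdivi-1-treated against control embryos, by gene list, with 1 point per gene, a black bar for the median of the list and a grey band for the middle 50% of all genes tested. The medians of 6 of the 9 lists below the subunit genes lie left of 0. Those of the other MCM paralogs, of Okazaki fragment maturation and of the E2F, Rb and S phase cyclins list lie right of it. The leftmost point is *Rnaseh2b*, with 2 counts in the treated libraries together.

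The genes most like the mean pattern of the 10 subunit genes were sought among genes with a mean of at least 10 CPM, by Euclidean distance of log2 CPM centred over the 4 libraries. The 5 nearest were *Septin7* (0.0170), *Cdkn2d* (0.0182), *Prrc2c* (0.0472), *Supt5* (0.0570) and *Fancm* (0.0788). *Septin7* had 90.2 and 81.3 CPM in control and 58.5 and 57.2 CPM in treated libraries. The subunit genes were much farther from their own mean, from 0.551 for *Gins4* and 0.588 for *Mcm6* to 2.95 for *Gins3*, so that the mean pattern stood for none of them closely. With 4 libraries such a likeness rests on few points and is a description.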

How the data were processed

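Smart-Seq2 libraries of late 2C embryos, 2 control and 2 Mdivi-1, were analysed. After trimming with cutadapt 1.16 and mapping with STAR, the authors deposited raw counts of reads in exons per gene (STAR GeneCounts, GENCODE; the submitters' notes name mm10). The deposited table also holds the authors' normalized signal per gene, and their log2 fold changes, Wald score and p-values, none of which were used. From the counts, genes were filtered with filterByExpr (minimum count 10), scaled by TMM and tested with edgeR 4.0.16 (R 4.3.3) by the two-sided quasi-likelihood test. The p-values were adjusted by Benjamini-Hochberg across the whole set of tested genes. Standard errors were worked back from the F statistic. DESeq2 1.42.0 and limma-voom 3.58.1 were alternatives, beside other scalings, filters, the likelihood ratio test, a replicate block and leaving out each library. The code of the fits was checked on simulated counts that varied less between libraries than these data. Power and false calls in these data were not measured by that check. Coordinates and exonic lengths came from GENCODE M21 on GRCm38, since the table's coordinates are of another build. Promoters came from RefSeq.

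The members and the gene lists were chosen with earlier results of these data known. Named were all 10 members, the gene with the smallest unadjusted p of each pathway list, *Cdc45*, *Cdt1*, *Gmnn*, *Cdc6*, *Mcm10*, *Mcmbp*, *Pcna*, the E2F genes and the 5 genes most alike in pattern. *Prkdc*, *Abhd12*, *Gse1*, *Ap4m1*, *Cops6*, *Mcm8* and the ratios between subunits were named after their values were seen.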

Additional observations from a re-analysis of the deposited data

How the results depend on the processing

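The main limit was 2 libraries in each group. *Mcm6*, *Gins1*, *Gins3*, *Gins4*, *Mcm3*, *Mcm4* and *Mcm5* kept their sign under all 12 alternatives of the fit, with *Mcm3* from -0.90 to -0.05 and *Mcm5* from 0.20 to 1.12. Past the adjusted threshold, where edgeR's quasi-likelihood test had 0 genes and 0 of the 10 members, there were 819 genes and 2 members with no low-count filter, 867 and 3 with DESeq2, 202 and 1 with limma-voom, and 870 and 3 with the likelihood ratio test. Leaving out 1 library gave 0 to 10 genes and 0 members, the 10 genes coming without control replicate 2. The count of 4 members lower at an unadjusted p under 0.05 was 2 without either Mdivi-1 library, 3 by library totals and without control replicate 1, and 4 otherwise. DESeq2 leave-outs, chosen after seeing the data, called 0 to 3 members and 0 to 10 of the pathway genes, against 3 and 4, with 10 pathway genes without control replicate 1, 0 without Mdivi-1 replicate 1 and 1 without Mdivi-1 replicate 2. Pathway genes lower at an unadjusted p under 0.05 numbered 6, but 3 by library totals and 1 (without control replicate 2) to 12 (without control replicate 1) when 1 library was left out, with 2 without Mdivi-1 replicate 1. Those higher numbered 3, and 2 to 8 when 1 was left out, with 8 without control replicate 1. For the fits with 1 library left out, the share of all genes at an unadjusted p under 0.05 or called by DESeq2 was not worked out. Their counts of pathway genes therefore cannot be read as more or fewer than among all genes. Scaling by library totals moved the median of all genes to 0.14, the log2 ratio of the summed MCM2-7 level to -0.095 and that of the GINS sum to -0.96. *Mcm2* changed sign to 0.0073 by library totals, 0.064 by limma-voom and 0.14 with the replicate block, and its values ran from -0.60 to 0.91 when 1 library was left out. Values of *Mcm7* so ran from -0.71 to 0.28 and those of *Gins2* from -0.57 to 0.36, both changing sign once. Same-numbered libraries did not deviate together (correlation 0.00809), so the numbers were not taken as pairs. With the replicate block 0 genes passed and *Gins3* had a log2 fold change of -3.27 (edgeR adjusted p = 0.0991). Coding lengths of RefSeq proteins were not run, and coding lengths of GENCODE, added after seeing the data, gave log2 ratios of -0.28 for the MCM2-7 sum and -1.04 for the GINS sum. The causes of these changes were not tested.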
